A study of Mus musculus with 18 samples.

Results

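The uterus of mice homozygous for the ARE allele (ARE-/-) was compared with the wild-type (WT) uterus across every gene measured, by total RNA sequencing. The comparison rests on 6 of the 18 libraries of the series, 3 ARE-/- and 3 WT, chosen by their tissue and genotype labels. Both groups were C57B6/J mice aged 20 to 25 weeks, and the labels give no treatment. The other uterus libraries, 3 from heterozygous (ARE+/-) animals, entered the fit to estimate the spread between libraries, and 9 libraries of ovary from the same 3 genotypes served for a comparison of tissues. One WT library (replicate 1) carries a backup mark in its title. The stage of the estrous cycle, which changes much of the uterine transcriptome, is not stated in the sources used here.

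As background, ARE is the usual name for an AU-rich element; the labels do not spell it out. The element of the Ifng transcript limits the life of the messenger RNA for interferon gamma. Interferon gamma, made mainly by T cells and natural killer cells, acts on almost every cell type, in part through interferon regulatory factors. The uterus is built of a lining and glandular epithelium, a stroma rich in collagen, a thick outer wall of smooth muscle, vessels and resident immune cells, and it lies in fat beside the ovary and oviduct. In such bulk samples, fewer cells of a type and less RNA per cell cannot be told apart.

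The uterus libraries held 33185496 to 49720354 counts, and between 28241 and 31182 genes had a count in each. Levels are given as CPM, each count over the library total scaled for composition. A gene rose or fell where edgeR's quasi-likelihood p, adjusted over all 24277 tested genes by Benjamini-Hochberg, was under 0.05, and log2 fold changes are ARE-/- over WT with their standard errors. Ifng had 2.66, 3.14 and 1.68 CPM in the 3 ARE-/- libraries, against 0.107, 0.128 and 0 CPM in WT libraries. It rose by 4.93 ± 0.80 on the log2 scale (edgeR adjusted p = 0.0108), and leaving out WT replicate 1 took this to 0.0665.

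Among the ARE-/- and WT libraries, a pair stood apart from the rest of their groups. ARE-/- replicate 1 lay far from ARE-/- replicates 2 and 3 on both leading principal components, needed the lowest scaling factor (0.838), and carried 4.72% mitochondrial counts, against 3.04% to 3.72% in the other uterus libraries. WT replicate 2 differed from WT replicates 1 and 3 in single genes by large amounts. Krt14, a keratin of stratified epithelium, had 18.3 CPM there and 3060 and 2588 CPM in WT replicates 1 and 3. Inhbb, the beta B subunit of inhibin and activin, had 11.8 CPM in WT replicate 2, against 656 and 591 CPM in WT replicates 1 and 3. Values without these libraries are given beside the results they moved most. Among the ARE+/- libraries, which helped to estimate the spread, replicate 3 lay apart on the second principal component. It was at -59.95 there, against -21.7 and -27.53 for ARE+/- replicates 1 and 2.

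Across all genes, 911 of 24277 were called (3.75%), of which 816 rose (3.36%) and 95 fell (0.391%). Of these 911 genes, 852 were on none of the lists for interferon gamma response, MHC and T cell genes, where 59 of 64 measured genes rose. Those lists are short, at 28, 16 and 20 measured genes, and do not hold every gene of their kind. The 852 genes include the class I gene H2-Q5 and the guanylate-binding proteins Gbp6 and Gbp10, so they are not all beyond interferon and MHC. Rises were large, with a median log2 size of 2.27, and 263 were at least 8-fold. Falls had a median log2 size of 1.34, and 8 were at least 8-fold. In every called gene the 3 ARE-/- libraries lay on one side of the 3 WT libraries. Among all tested genes, called or not, the share with all ARE-/- libraries above all WT libraries was 12.5%, and the share with all below was 9.8%. Genes that rose summed to 109458, 63425 and 74869 CPM in the ARE-/- libraries and 14926, 18912 and 14600 CPM in the WT libraries.

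The number of called genes depended strongly on single WT libraries. Without WT replicate 1, 203 genes were called (0.788%), 202 of them higher (0.784%) and 1 lower (0.00388%). Without WT replicate 3, 192 were called (0.759%), 190 higher (0.751%) and 2 lower (0.0079%). Without WT replicate 2 the counts were larger, at 893 higher and 375 lower. Removal of ARE-/- replicate 1 gave 973 rises (3.86%) and 130 falls (0.516%), which included 701 of the 816 rises and 48 of the 95 falls. A core of 177 genes was called whichever of the 9 libraries was left out, 176 higher and 1 lower. Of 85 called genes followed singly through these removals, 19 kept their call in every such removal, 35 lost it only without WT replicate 1 or 3, and 31 lost it without other libraries too.

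**Figure D1:**
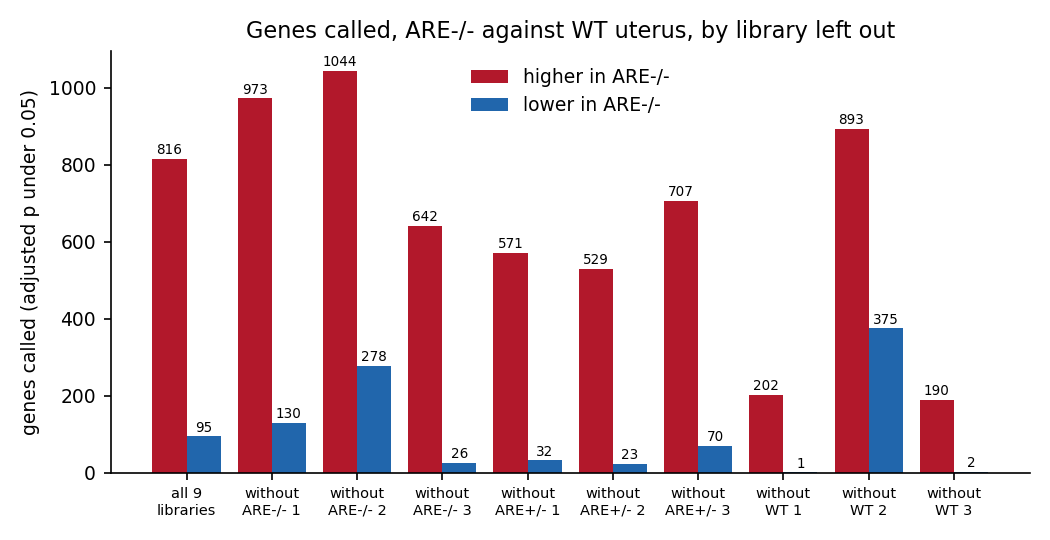
Bars give the number of genes called higher (red) or lower (blue) in ARE-/- than in WT uterus at an adjusted p under 0.05, for all 9 libraries and with each library left out in turn. Leaving out WT 1 or WT 3 reduced the rises to 202 and 190, and leaving out WT 2 gave 375 falls.

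The 10 steadiest rises were taken, by the rule for named genes, outside the interferon gamma response, MHC and T cell lists. They were Gbp6, Calhm6, Itgb7, Casp1, Ighm, H2-Q5 and 4 major urinary proteins (Mup2, Mup10, Mup13 and Mup14). Steadiest means called in every removal of 1 library and ranked by the highest adjusted p among the removals. Keeping the call was thus a condition of their choice. Listed genes such as Cxcl9 and H2-Q6 were as steady, with an edgeR adjusted p of at most 0.00845 in every removal. Major urinary proteins are pheromone carriers made mainly by the liver, and their near-identical copies share reads, so the 4 are not separate observations. Mup2 had 11.9, 5.3 and 4.85 CPM in ARE-/- libraries, against 0, 0.0213 and 0 CPM in WT libraries, and Mup10 had 13.6, 7.3 and 6.52 CPM, against 0, 0.0426 and 0 CPM. Mup13 and Mup14 had no count in WT libraries, and all 4 kept their calls in each removal of 1 library, as their choice required. Gbp6, a guanylate-binding protein (ENSMUSG00000104713, chromosome 5, 105420277 to 105441562, minus strand, in the annotation of the files), had 215, 237 and 194 CPM in ARE-/- libraries, against 12.3, 18.0 and 12.6 CPM in WT libraries. It rose by 3.91 ± 0.33 on the log2 scale (edgeR adjusted p = 0.00059), and the ARE+/- libraries at 72.1, 59.6 and 132 CPM lay between the other genotypes. Its relative Gbp10, named for its fold from a measured WT level, had 221, 188 and 155 CPM in ARE-/- uterus and 4.07, 7.76 and 4.98 CPM in WT uterus (5.06 ± 0.45, adjusted p = 0.00063). These neighbouring copies share sequence, so reads may be split or counted for both.

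Calhm6, a calcium homeostasis modulator of immune cells (ENSMUSG00000046031, chromosome 10, 34002063 to 34003980, minus strand), had 14.9, 13.9 and 17.1 CPM in ARE-/- libraries and 1.02, 1.15 and 1.19 CPM in WT libraries. The difference of 3.77 ± 0.32 (edgeR adjusted p = 0.00063) was far beyond the spread within either group. Itgb7, the integrin beta 7 chain that guides lymphocytes into mucosa (ENSMUSG00000001281, chromosome 15, 102124430 to 102140379, minus strand), had 57.9, 52.7 and 61.2 CPM, against 12.3, 16.8 and 11.4 CPM in WT (2.08 ± 0.18, adjusted p = 0.00063). Outside the 10, Vcam1, the endothelial adhesion molecule for lymphocyte integrins, had 43.4, 37.5 and 43.9 CPM, against 11.4, 13.6 and 10.2 CPM in WT (1.83 ± 0.17, adjusted p = 0.00079). Ighm, the heavy chain of immunoglobulin M, had 120, 121 and 122 CPM in ARE-/- and 12.9, 22.6 and 17.7 CPM in WT uterus (2.77 ± 0.23, adjusted p = 0.00059). H2-Q5, a nonclassical class I gene with close copies, averaged 77.5 ± 11.1 CPM in ARE-/- and 12 ± 2.13 CPM in WT uterus (SD, n = 3 each, 2.69 ± 0.21, adjusted p = 0.00059 in edgeR).

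Casp1, the protease that cleaves interleukin 1 beta in the inflammasome (ENSMUSG00000025888, chromosome 9, 5298508 to 5307290, plus strand), was among the least variable of all. Its 3 ARE-/- libraries had 55.8, 56.3 and 59.2 CPM, against 17.8, 16 and 16.8 CPM in WT (1.76 ± 0.15, edgeR adjusted p = 0.00063). Also outside the 10, Ltbp2, a matrix protein related to the binders of latent TGF beta (ENSMUSG00000002020, chromosome 12, 84829986 to 84923306, minus strand), had 34.5, 21.7 and 43.1 CPM in ARE-/- and 5.25, 4.24 and 4.09 CPM in WT uterus (2.87 ± 0.27, adjusted p = 0.00079). Its ARE+/- libraries, at 25.8, 30.6 and 24.3 CPM, overlapped the ARE-/- range. Ubd, a ubiquitin-like modifier among the largest rises, varied more, and had 115, 21.2 and 34.0 CPM in ARE-/- libraries and 0.482, 0.0426 and 0 CPM in WT libraries (8.40 ± 1.24, adjusted p = 0.00853), with the highest value in ARE-/- replicate 1. Calls of these genes stood with any library left out, at adjusted p of at most 0.0106 for Ltbp2 and the genes before it and 0.0473 for Ubd. For the 10 steadiest this was a condition of their choice.

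**Figure D2:**
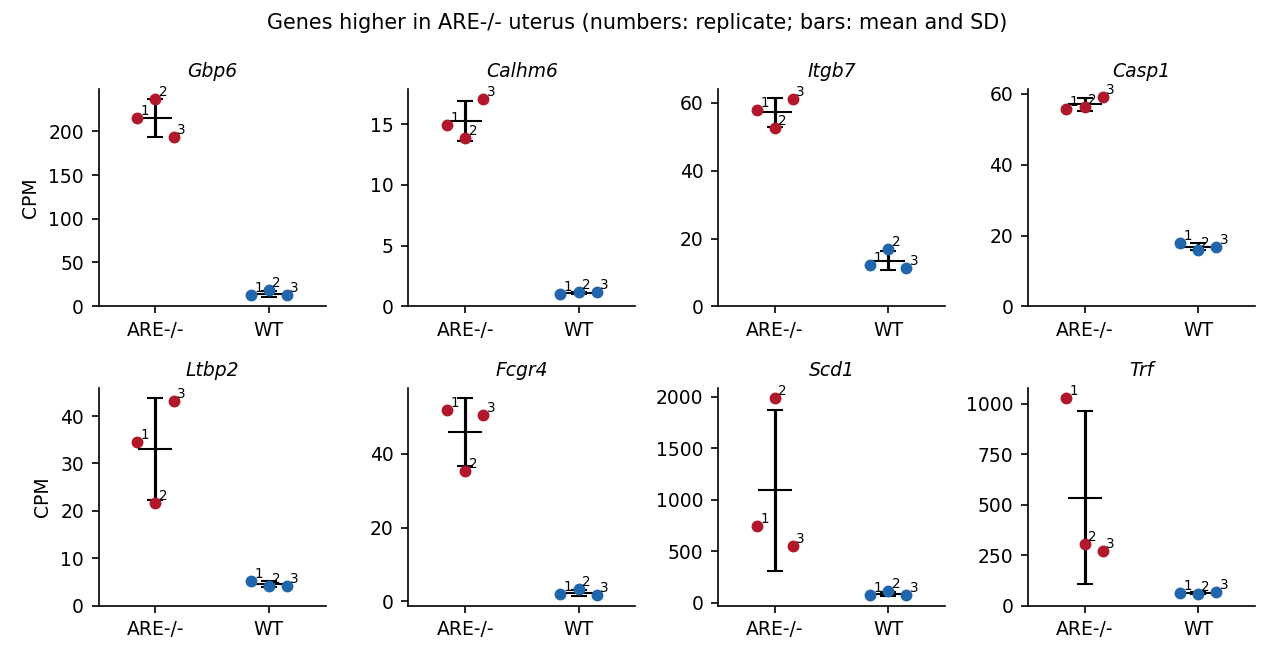
CPM of 8 genes per library, ARE-/- left and WT right, with the replicate number beside each point and a bar for mean and SD. In Gbp6, Calhm6, Itgb7, Casp1, Ltbp2 and Fcgr4 all ARE-/- libraries lie well above WT, whereas Scd1 is highest in ARE-/- replicate 2 and Trf in ARE-/- replicate 1.

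Promoter sequences are shown for 3 genes of this comparison, chosen because they hold the motif searched, since interferon regulatory factors (IRF) act through short DNA motifs near start sites. The windows run from 250 bases before to 50 after the start, from RefSeq on GRCm38.p6, which is not the build of the counting annotation. Calhm6 is at chr10:34127923-34128222 (minus strand), Fcgr4 at chr1:171018676-171018975 (plus) and Apol11b at chr15:77643237-77643536 (minus). Capitals mark an IRF-type motif, GAAANNGAAA, on either strand.
Calhm6: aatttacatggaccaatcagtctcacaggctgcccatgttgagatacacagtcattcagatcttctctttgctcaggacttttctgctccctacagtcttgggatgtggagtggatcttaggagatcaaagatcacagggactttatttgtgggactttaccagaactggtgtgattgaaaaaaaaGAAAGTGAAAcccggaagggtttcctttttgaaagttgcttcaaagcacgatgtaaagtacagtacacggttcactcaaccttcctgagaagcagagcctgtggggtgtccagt
Fcgr4: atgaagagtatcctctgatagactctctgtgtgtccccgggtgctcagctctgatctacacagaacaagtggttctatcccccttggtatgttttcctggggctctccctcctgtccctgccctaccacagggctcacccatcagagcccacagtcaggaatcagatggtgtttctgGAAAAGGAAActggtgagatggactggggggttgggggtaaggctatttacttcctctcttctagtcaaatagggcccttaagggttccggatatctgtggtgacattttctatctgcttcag
Apol11b: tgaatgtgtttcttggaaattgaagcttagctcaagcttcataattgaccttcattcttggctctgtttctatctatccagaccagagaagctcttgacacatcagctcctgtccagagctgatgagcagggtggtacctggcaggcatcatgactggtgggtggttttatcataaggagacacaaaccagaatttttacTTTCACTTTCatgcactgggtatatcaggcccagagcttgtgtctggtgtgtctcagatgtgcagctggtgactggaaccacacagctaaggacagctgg

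Calhm6, Fcgr4 and Apol11b each held 1 IRF-type motif, and 7 of 70 genes followed singly that have a promoter entry held one. Itgb7, Casp1, Ltbp2, Ubd and Ifng had none in this window. The IRF-type motif was in the first listed promoter of 57 of 482 rising genes outside the interferon, MHC and T cell lists (11.8%), in 24 of 111 rises called without any 1 library (21.6%) and in 1 of 66 falling genes (1.52%). Its share was 3.16% of all 13890 tested genes with a promoter and 3.49% of all 27025 promoters in the table. These shares are descriptions of short letter matches, without a test. The lists are short, so a place outside them does not set a gene apart from interferon or MHC.

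Serpina3g, an inhibitor of cysteine proteases in activated immune cells, had 100, 58.1 and 97.5 CPM in ARE-/- libraries, against 3.89, 8.38 and 4.28 CPM in WT (3.95 ± 0.40, edgeR adjusted p = 0.0009). Serpina3f had 31.7, 25.5 and 19.7 CPM, against 0.482, 0.789 and 0.0476 CPM in WT (5.85 ± 0.77, adjusted p = 0.00406). In all, 6 of 9 measured Serpina3 genes rose (66.7%, against 3.36% of all genes), but these near-identical copies share reads. Without WT replicate 1 or WT replicate 3 the count was 2. Major urinary proteins gave 8 calls of 9 (88.9%) with the same limit of shared reads, and 6 without WT replicate 1 or WT replicate 3. Apol11b, an apolipoprotein L family gene, had 4.33, 1.14 and 1.17 CPM in ARE-/- libraries and 0 in all WT libraries. Its 242 ARE-/- counts make it at least 91.9-fold higher, taking 3 counts for the WT libraries together as the floor.

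Of 41 measured cytochromes P450, 5 rose (12.2%, against 3.36% of all genes). The count was 2 without WT replicate 1 and 1 without WT replicate 3. Cyp2f2, an enzyme known from airway club cells, had 125, 65.2 and 73.2 CPM in ARE-/- uterus, against 7.61, 13.6 and 5.81 CPM in WT (3.28 ± 0.40, edgeR adjusted p = 0.00249). Its ARE+/- libraries, at 82.8, 72.7 and 127 CPM, were as high. Cyp2e1, an ethanol-oxidising enzyme of liver and fat, had 953, 86.1 and 105 CPM in ARE-/- and 2.84, 3.07 and 3.29 CPM in WT uterus (6.96 ± 1.02, adjusted p = 0.00839). Cyp1a1, a target of the aryl hydrocarbon receptor, had 9.82, 3.97 and 1.44 CPM, against 0.268, 0.0426 and 0 CPM in WT (5.63 ± 1.15, adjusted p = 0.0279). Cyp2j9, an arachidonic acid oxidase, gave 1.37 ± 0.25 (adjusted p = 0.0184). Ces1f, a carboxylesterase, had 136, 14.9 and 13.6 CPM in ARE-/- and 0.0536, 0.426 and 0.143 CPM in WT uterus (7.97 ± 1.2, adjusted p = 0.0093). The calls of Cyp2e1, Cyp1a1, Cyp2j9 and Ces1f were lost without WT replicate 3, at adjusted p of 0.0653 to 0.118, and that of Cyp1a1 without ARE-/- replicate 1 too (0.0565).

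Of 18 measured macrophage genes 11 rose (61.1%, against 3.36% of all genes) and 7 did not pass. The median log2 fold change of the 18 was 1.91, against 0.04 over all tested genes. Fcgr4, an activating receptor for immunoglobulin G (ENSMUSG00000059089, chromosome 1, 170846489 to 170857330, plus strand), had 51.7, 35.3 and 50.6 CPM in ARE-/- libraries, against 2.09, 3.24 and 1.67 CPM in WT (4.29 ± 0.43, edgeR adjusted p = 0.0009). C1qb, a chain of complement C1q, had 432, 249 and 493 CPM, against 76.6, 109 and 69.2 CPM in WT (2.20 ± 0.30, adjusted p = 0.00503). Adgre1, which encodes the F4/80 marker, had 52.8, 94.8 and 231 CPM, against 29.7, 35.0 and 28.9 CPM in WT (2.02 ± 0.46, adjusted p = 0.0422). Ctss, the lysosomal protease that trims the class II invariant chain, had 157, 243 and 583 CPM, against 48.6, 74.4 and 52.8 CPM in WT (2.48 ± 0.47, adjusted p = 0.0202). In Adgre1 and Ctss replicate 3 was the highest ARE-/- library and replicate 1 the lowest. Macrophage calls numbered 4 without WT replicate 1 and 3 without WT replicate 3, and Adgre1 and Ctss lost theirs in both cases. In all, the Adgre1 call was lost without any of 7 libraries.

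Dendritic cell genes gave 5 rises of 11 (45.5%, against 3.36% of all genes, median 1.04). The count was 0 without WT replicate 1 or WT replicate 3. Xcr1, a chemokine receptor of cross-presenting dendritic cells, had 6.71, 11.8 and 16.8 CPM in ARE-/- and 2.25, 2.35 and 3.33 CPM in WT uterus (2.15 ± 0.39, edgeR adjusted p = 0.0168). Clec9a, their receptor for dead cells, had 13.7, 23 and 31.4 CPM, against 4.66, 7.14 and 7.02 CPM in WT (1.85 ± 0.33, adjusted p = 0.0154). Batf3, the transcription factor they need, had 6.44, 6.19 and 7.24 CPM, against 1.55, 2.43 and 2.00 CPM in WT (1.73 ± 0.28, adjusted p = 0.0103). Clec10a, a lectin of other dendritic cells and macrophages, gave 1.61 ± 0.24 (adjusted p = 0.00744).

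Complement genes gave 11 rises of 16 (68.8%, against 3.36% of all genes, median 1.97). Of these, 3 were left without WT replicate 1 and 4 without WT replicate 3. C2, the protease of the classical pathway, had 153, 117 and 228 CPM in ARE-/- libraries, against 14.3, 25.5 and 14.4 CPM in WT (3.2 ± 0.40, edgeR adjusted p = 0.00297), and this call stood in every removal. Selplg, the ligand of P-selectin on leukocytes, had 46.8, 55.9 and 83.7 CPM, against 16, 27.7 and 16.3 CPM in WT (1.63 ± 0.28, adjusted p = 0.0144), lost without WT replicate 1 or 3. Among 13 neutrophil genes 3 rose (23.1%). The count was 1 without ARE-/- replicate 1 or WT replicate 1, 0 without WT replicate 3 and 7 without ARE+/- replicate 3. S100a9, a subunit of calprotectin in neutrophils, had 79.2, 61.6 and 88.3 CPM in ARE-/- and 1.45, 1.15 and 0.809 CPM in WT uterus (6.07 ± 1.28, adjusted p = 0.0355). Its ARE+/- libraries had 117, 66.8 and 1.10 CPM, the last being at the WT level, and the call was lost without any of 7 libraries. Saa3, an acute-phase protein, was high in 1 ARE-/- library, with 2.55, 5.95 and 86.7 CPM, against 0.268, 0.768 and 0.286 CPM in WT (6.14 ± 1.33, adjusted p = 0.0387), and leaving out replicate 3 reduced its log2 fold change to 3.24. The Saa3 call was lost without any of 6 libraries, the 3 ARE+/- and the 3 WT, at adjusted p up to 0.197.

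Natural killer genes gave 1 rise and 1 fall of 14 measured (7.14% each, against 3.36% and 0.391% of all genes, median 0.34). The rise was Klrk1, the NKG2D receptor that T cells also carry, with 10.9, 23.4 and 24.3 CPM in ARE-/- and 5.79, 8.10 and 6.52 CPM in WT uterus (1.52 ± 0.31, edgeR adjusted p = 0.0282, lost without any of 6 libraries). Among 9 mast cell genes 1 fell (11.1%, against 0.391% of all genes). Of the 9, 7 had all ARE-/- libraries below WT, an order seen in 9.8% of all tested genes. The fall was Mrgprb1, a Mas-related receptor of mast cells, with 2 counts in all ARE-/- libraries and 98 in WT libraries, a ratio of 0.0232 (95% counting interval 0.00278 to 0.0862). Its call (adjusted p = 0.0283) was lost without any of 5 libraries, ARE-/- replicate 1 among them (0.0524).

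Cell death and inflammasome genes gave 8 rises of 24 (33.3%, against 3.36% of all genes, median 0.87). Of these rises 1, Casp1, was left without WT replicate 1 or 3. Zbp1, a sensor of Z-form nucleic acids that triggers necroptosis, had 68.5, 67.5 and 85.2 CPM in ARE-/- libraries, against 8.65, 7.76 and 8.45 CPM in WT (3.15 ± 0.46, edgeR adjusted p = 0.00704). Mlkl, the executioner of necroptosis, had 24.0, 20.5 and 17.8 CPM, against 10.4, 8.21 and 10 CPM in WT (1.12 ± 0.21, adjusted p = 0.018). Casp4, the protease that senses cytosolic lipopolysaccharide, had 37.3, 42.4 and 51.1 CPM, against 13.2, 22.4 and 12.8 CPM in WT (1.43 ± 0.24, adjusted p = 0.0129). Without WT replicate 1 or 3 the adjusted p of these 3 genes lay between 0.051 and 0.0956.

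Of 20 measured genes of cholesterol and fatty acid synthesis 4 rose (20%, against 3.36% of all genes, median 0.30). Of these rises, Scd1, Fasn and Acaca serve fatty acid synthesis. Scd1, the desaturase that makes oleate, had 743, 1986 and 552 CPM in ARE-/- libraries, against 77.6, 114 and 79.6 CPM in WT (3.6 ± 0.51, edgeR adjusted p = 0.00583). Fasn, fatty acid synthase, had 1654, 2859 and 977 CPM, against 414, 399 and 495 CPM in WT (2.07 ± 0.37, adjusted p = 0.0162). Acaca, which supplies malonyl-CoA to Fasn, had 236, 311 and 122 CPM, against 74.9, 93.1 and 74.9 CPM in WT (1.46 ± 0.32, adjusted p = 0.0379). Apoe, a carrier of lipids made by macrophages among others, had 2961, 1605 and 2385 CPM, against 655, 1028 and 534 CPM in WT (1.65 ± 0.32, adjusted p = 0.0219). In Scd1, Fasn and Acaca the highest library was ARE-/- replicate 2. The Scd1 call was lost without WT replicate 3 (0.0518), those of Fasn and Apoe without WT replicate 1 or 3 (0.0794 to 0.134) and that of Acaca without any of 8 libraries, ARE-/- replicate 1 included (1.42, 0.08).

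Transcripts of fat cells were higher in all ARE-/- libraries, and by far the most in replicate 1. The 18 listed adipocyte genes summed to 21770, 3733 and 2074 CPM of total counts in ARE-/- replicates 1, 2 and 3, to 1189, 813 and 758 CPM in ARE+/- and to 204, 266 and 207 CPM in WT libraries. No genotype overlapped another, and the single genes that follow are on the composition-scaled CPM. Cfd, adipsin (ENSMUSG00000061780, chromosome 10, 79726687 to 79728489, plus strand), had 9808, 726 and 480 CPM in ARE-/- and 22.8, 27.4 and 20.8 CPM in WT libraries. Fabp4, the fatty acid carrier of adipocytes, had 3049, 404 and 195 CPM, against 9.75, 9.49 and 6.86 CPM in WT. Adipoq, adiponectin, had 1004, 154 and 81.9 CPM, against 4.29, 6.35 and 3.81 CPM in WT. Pparg, the regulator of fat cell identity, had 54.8, 13.3 and 8.98 CPM, against 2.89, 2.22 and 2.24 CPM in WT. ARE-/- replicate 1 was the highest library in each of these genes.

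All 17 measured adipocyte genes rose (median 5.46), among them Cfd by 7.28 ± 1.23 (edgeR adjusted p = 0.0146), Cidec, a lipid droplet protein, by 7.14 ± 1.02 (0.00744), Fabp4 by 7.13 ± 1.08 (0.00932), Car3, a carbonic anhydrase abundant in fat, by 6.28 ± 0.93 (0.00831) and Lpl, lipoprotein lipase, by 4.51 ± 0.72 (0.0109). Without ARE-/- replicate 1, 15 genes rose and the median was 3.59, so Cfd gave 4.67 (adjusted p = 0.00058), Fabp4 5.10 (0.00108) and Pparg 2.18 (0.00303). The genes whose calls ended were Cidea and Lep. Lep, leptin, had 7.88, 9.19 and 2.15 CPM, against 0.589, 0.554 and 0.667 CPM in WT, and its highest library was ARE-/- replicate 2. Without WT replicate 1 or WT replicate 3 no adipocyte gene was called, although all 17 kept the ARE-/- libraries above the WT libraries. Gpd1, a glycerol phosphate dehydrogenase of fat and other tissues, had 267, 104 and 50.5 CPM, against 9.51, 6.85 and 6.67 CPM in WT (4.20 ± 0.56, adjusted p = 0.00501), and was called in every removal.

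Red cell transcripts were highest in the same library. The 8 listed genes summed to 6092, 1339 and 846 CPM of total counts in ARE-/- replicates 1, 2 and 3, to 237, 127 and 132 CPM in ARE+/- and to 209, 99.5 and 215 CPM in WT uterus. Hba-a1, an alpha globin with a near-identical copy, had 2295, 364 and 238 CPM, against 56.8, 27.0 and 62.6 CPM in WT (4.31 ± 0.86, edgeR adjusted p = 0.0282). Alas2, the erythroid enzyme of haem synthesis, had 32.5, 8.59 and 6.61 CPM, against 1.80, 3.05 and 2.57 CPM in WT (2.68 ± 0.61, adjusted p = 0.043). Of 6 measured red cell genes 5 rose, 4 of them also without ARE-/- replicate 1, and 0 without WT replicate 1 or WT replicate 3. The Alas2 call was lost without any of 7 libraries. Trf, transferrin, the iron carrier of plasma, had 1029, 306 and 271 CPM in ARE-/- and 62.7, 60.1 and 69.2 CPM in WT uterus (3.07 ± 0.47, adjusted p = 0.00853). Without ARE-/- replicate 1 Trf gave 2.17 (adjusted p = 0.00058), and its call was lost without WT replicate 1 or 3 (at most 0.063).

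As a set, transcripts of the ovary stood out in 1 of the 3 ARE-/- uterus libraries. Taken as genes with at least 50 CPM in WT ovary and at least 100 times the WT uterus level, 33 genes summed to 580 CPM of total counts in ARE-/- replicate 1. The same genes summed to 40.4 and 54.1 CPM in ARE-/- replicates 2 and 3, 54.8 to 63.9 CPM in ARE+/- and 34.9 to 51.2 CPM in WT libraries. WT sums are low by the definition itself. Not every gene followed the sum. A2ml1 had 9.74, 1.52 and 9.43 CPM in ARE-/-, 9.63, 9.06 and 9.85 CPM in ARE+/- and 0.976 to 1.28 CPM in WT. A2ml1 and Rims4 were called (edgeR adjusted p = 0.0415 and 0.0427), with log2 fold changes of 2.24 and 2.88 without ARE-/- replicate 1. With a wider definition of at least 20 CPM and 50 times, 86 genes summed to 1151 CPM in ARE-/- replicate 1, 204 and 185 CPM in ARE-/- replicates 2 and 3, 165 to 226 CPM in ARE+/- and 98.6 to 125 CPM in WT libraries.

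Hsd3b1, a steroid dehydrogenase of luteal and thecal cells, had 120 CPM of total counts in ARE-/- replicate 1, 0.199 and 0 CPM in replicates 2 and 3, and 0.221 to 1.33 CPM in WT uterus. Inha, the inhibin alpha chain of granulosa cells, had 118, 9.07 and 8.68 CPM in ARE-/- and 6.09 to 8.54 CPM in WT libraries. Amh, the anti-Müllerian hormone of growing follicles, had 39.6, 1.15 and 1.57 CPM, against 0.813 to 1.99 CPM in WT. Cyp11a1, the first enzyme of steroid synthesis, had 28.2, 0.249 and 0.241 CPM, against 0.397 to 0.825 CPM in WT. As a share of the WT ovary level, ARE-/- replicate 1 held 27.2% for Amh, 8.55% for Inha, 3.69% for Hsd3b1 and 0.567% for Cyp11a1, so the genes were not present in one proportion.

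None of these 4 ovarian genes was called, at adjusted p between 0.147 and 0.237 in edgeR, since 1 library carried the signal. Without it, Hsd3b1 and Cyp11a1 gave log2 fold changes of -2.93 and -1.41 (adjusted p = 0.424 and 0.437). Other transcripts were high in the same library. Uchl1, a ubiquitin hydrolase of neurons and germ cells, had 201, 4.50 and 2.99 CPM, against 2.30, 4.35 and 2.57 CPM in WT. Upk1b, a uroplakin of urothelium and mesothelium, had 333, 11.8 and 14.3 CPM, against 3.62, 6.38 and 4.12 CPM in WT, and Krt18, a keratin of simple epithelium, had 665, 127 and 110 CPM, against 113, 116 and 108 CPM. Their part in the other results was not tested. Leaving all ovary-enriched, adipocyte and red cell genes out of the fit gave 782 rises and 90 falls. That fit kept ARE-/- replicate 1 and its other high transcripts. It therefore cannot show how far other tissue in that library moved the remaining calls.

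**Figure D3:**
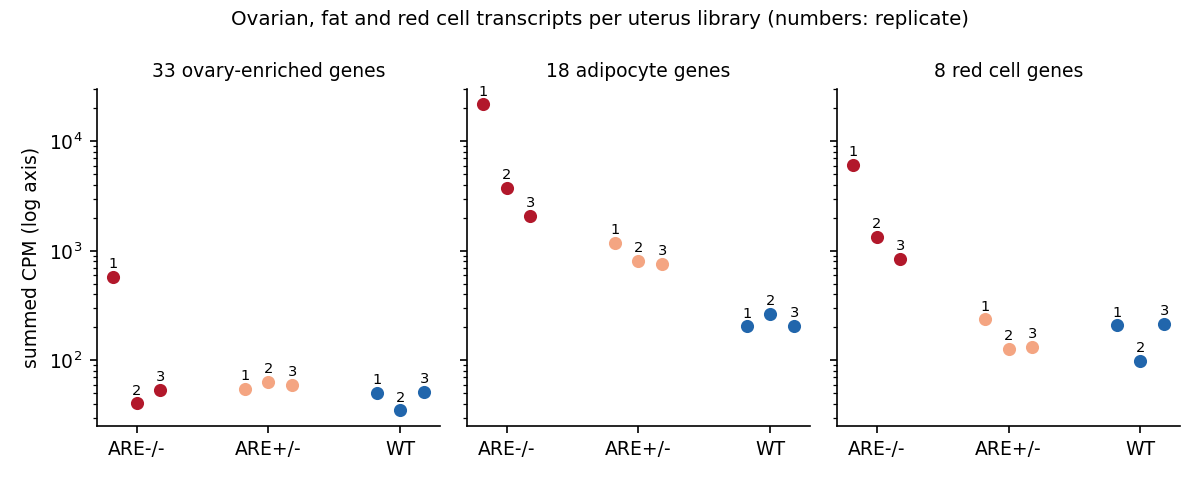
Summed CPM (log axis) of 33 ovary-enriched, 18 adipocyte and 8 red cell genes in each uterus library, with the replicate number above each point. ARE-/- replicate 1 lies highest in all 3 panels, at 580, 21770 and 6092 CPM, while ARE-/- replicates 2 and 3 lie above WT for adipocyte and red cell genes and near WT for ovary-enriched genes.

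Smooth muscle genes gave no call over the 3 ARE-/- libraries and opposite values within them. None of 19 measured genes was called (median 0.15). Actg2, the gamma actin of visceral muscle, had 2851 CPM in ARE-/- replicate 1 but 190 and 126 CPM in replicates 2 and 3, against 600, 612 and 600 CPM in WT libraries. Des, desmin, had 2667, 406 and 404 CPM in ARE-/- and 866, 921 and 798 CPM in WT libraries. Cnn1, calponin, had 1570, 219 and 153 CPM, against 564, 538 and 547 CPM in WT. Acta2, the vascular and uterine alpha actin, had 4033, 1236 and 1074 CPM, against 2383, 2494 and 2451 CPM, and Myh11, the smooth muscle myosin heavy chain, had 3660, 1168 and 1093 CPM, against 1969, 2205 and 1811 CPM. In each of these 5 genes, chosen after their values were seen except Acta2 and Myh11, replicate 1 lay above all WT libraries and replicates 2 and 3 below them.

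Relative to the WT mean, 15 of 19 smooth muscle genes were higher in ARE-/- replicate 1 (median log2 ratio 0.88), 2 in replicate 2 (-0.77) and 4 in replicate 3 (-0.87). Without replicate 1, 7 of the 19 fell, against a share of 0.516% of all genes. These were Actg2 (-1.93, edgeR adjusted p = 0.00229), Cnn1 (-1.56, 0.00735), Des (-1.09, 0.00295), Acta2 (-1.08, 0.0124), Myl9 (-0.99, 0.0134), Myh11 (-0.82, 0.0239) and Synpo2 (-0.78, 0.0471). ARE+/- libraries were low as well, with 216, 230 and 167 CPM of Actg2 and 269, 283 and 186 CPM of Cnn1. Of 16 cytoskeleton genes, 4 fell without replicate 1, namely Tpm2 (-1.36), Tubb6 (-0.94), Tpm1 (-0.89) and Flna (-0.72). With 2 ARE-/- libraries left, the spread was taken from all remaining uterus libraries.

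**Figure D4:**
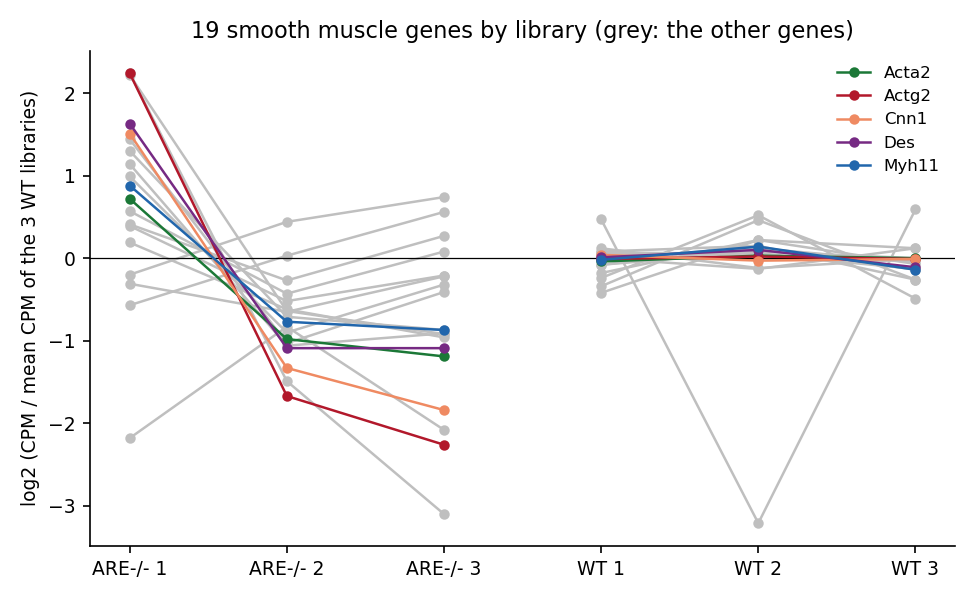
Each line is 1 of 19 smooth muscle genes, as the log2 ratio of its CPM to the mean of the 3 WT libraries, in ARE-/- libraries (left) and WT libraries (right). Actg2, Cnn1, Des, Acta2 and Myh11 lie above 0 in ARE-/- replicate 1 and below 0 in ARE-/- replicates 2 and 3.

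Falling genes were fewer, and in several of them WT replicate 2 lay below WT replicates 1 and 3. Of 41 measured collagens 3 fell (7.32%, against 0.391% of all genes), namely Col1a1, Col1a2 and Col6a3. The median of the family was -0.67, and 17 of the 41 had all ARE-/- libraries below WT. That order was seen in 9.8% of all tested genes. Summed collagen levels were 9995, 16968 and 10093 CPM in ARE-/-, 18591, 17691 and 10246 CPM in ARE+/- and 37761, 24162 and 36296 CPM in WT uterus. Col1a2, a chain of type I collagen, had 1396, 2268 and 1711 CPM in ARE-/- and 5817, 3128 and 5281 CPM in WT libraries (-1.40 ± 0.32, edgeR adjusted p = 0.0451). Col6a3, a chain of the microfibril collagen VI, had 303, 721 and 456 CPM, against 2902, 961 and 2931 CPM in WT (-2.20 ± 0.46, adjusted p = 0.032). With WT replicate 2 left out 8 collagens fell, and with ARE-/- replicate 2 left out 6 did. No collagen was called in 6 of the 9 removals, those of WT replicates 1 and 3, ARE-/- replicates 1 and 3 and ARE+/- replicates 1 and 2.

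Ngfr, the low-affinity neurotrophin receptor of nerve-associated and stromal cells, had 53.9, 98.3 and 38.5 CPM in ARE-/- libraries, against 619, 103 and 612 CPM in WT (-2.81 ± 0.62, edgeR adjusted p = 0.0399). Its value in WT replicate 2 was close to the highest ARE-/- value. Ngfr was the single call among 12 nerve and Schwann cell genes, whose median was 0.89. Of the 12, 2 had all ARE-/- libraries above WT and 1, Ngfr, had all below. Aldh1l2, a mitochondrial folate enzyme, had 4.41, 6.31 and 3.53 CPM, against 43.9, 16.7 and 38.2 CPM in WT (-2.79 ± 0.49, adjusted p = 0.0144). Adcy1, an adenylate cyclase, had 2.77, 8.56 and 6.04 CPM, against 51.7, 15.2 and 50.3 CPM in WT (-2.75 ± 0.57, adjusted p = 0.029). P4ha3, a prolyl hydroxylase that matures collagen, had 1.5, 2.44 and 1.05 CPM, against 13, 3.52 and 11.5 CPM in WT (-2.48 ± 0.53, adjusted p = 0.0342). Tnfaip8l3, a phosphoinositide transfer protein, had 7.05, 23.4 and 14.8 CPM, against 106, 36.3 and 109 CPM in WT (-2.47 ± 0.48, adjusted p = 0.0238). In all 5 genes WT replicate 2 was the lowest WT library. All 5 lost their call without WT replicate 1, WT replicate 3 or ARE-/- replicate 1, with edgeR adjusted p up to 0.163. Ngfr lost its call without any of 7 libraries, and Adcy1 and P4ha3 lost theirs without any of 6.

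Further named falls are given with their values. Galnt13, a transferase that starts O-glycans, had 0, 0.532 and 0.598 CPM in ARE-/- libraries, against 8.57, 2.22 and 11.2 CPM in WT (-4.27 ± 0.98, edgeR adjusted p = 0.0443). Ighv1-15, an immunoglobulin variable segment whose close copies share reads, gave -3.21 ± 0.61 (edgeR adjusted p = 0.021). It was the single fall among 214 tested immunoglobulin and T cell receptor segments, of which 31 rose. Igkv8-19, 1 of the largest rises, gave 7.39 ± 1.53 (adjusted p = 0.0308), a call kept in 5 of 9 removals. Adgrb3, an adhesion receptor known from synapses, gave -3.15 ± 0.74 (0.0488). Gpr83, a G protein-coupled receptor of regulatory T cells and brain, had 0.721, 1.55 and 4.76 CPM, against 20.0, 11.2 and 22.5 CPM in WT (-2.94 ± 0.62, adjusted p = 0.0319). Klra8, a natural killer receptor whose relatives share sequence, had 0.971, 2.54 and 3.59 CPM, against 8.68, 13.1 and 10.9 CPM in WT (-2.20 ± 0.48, adjusted p = 0.0375), and here WT replicate 2 was the highest library. Chst13, a sulfotransferase, had 0.111, 1.02 and 0.748 CPM, against 17.4, 1.45 and 16.8 CPM in WT (-4.24 ± 0.96, adjusted p = 0.0428), with WT replicate 2 near the ARE-/- level. Chn1os1, an antisense transcript, and Plppr4, a membrane protein of neurons, gave -2.82 ± 0.66 and -2.53 ± 0.59 (adjusted p = 0.0488 and 0.0484), and WT replicate 2 was again the lowest WT library. Spon1, spondin 1 of the matrix and the smallest of these falls, had 98.4, 201 and 86.2 CPM, against 439, 329 and 444 CPM (-1.65 ± 0.38, adjusted p = 0.0427). Of 9 removals, Adgrb3, Chst13, Chn1os1 and Plppr4 kept their call in 1, Galnt13 in 2, and Klra8 and Spon1 in 3. Gpr83 kept its call in 4 and Ighv1-15 in 5. The highest adjusted p per gene among these falls was 0.101 to 0.224 in edgeR.

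Kcng1, a modifier subunit of potassium channels (ENSMUSG00000074575, chromosome 2, 168102037 to 168123052, minus strand), had 7.66, 8.42 and 7.06 CPM in ARE-/- libraries, against 23.7, 26.8 and 26.2 CPM in WT (-1.73 ± 0.28, edgeR adjusted p = 0.0111). Kcne4, an inhibitory channel subunit, had 6.99, 18.5 and 11 CPM, against 75.7, 45.7 and 60.3 CPM in WT (-2.32 ± 0.36, adjusted p = 0.0093). Kcnh2, the ERG channel that shapes uterine contraction, had 40.6, 33.1 and 40.0 CPM, against 81.6, 70.8 and 81.4 CPM in WT (-1.04 ± 0.21, adjusted p = 0.0256). The WT libraries were close together in Kcng1, while WT replicate 2 was the lowest WT library in Kcne4 and Kcnh2. These were the 3 falls among 70 measured potassium channel subunits (4.29%, against 0.391% of all genes), and 6 fell without WT replicate 2. Another 2 of the subunits rose (2.86%, against 3.36% of all genes). Without WT replicate 1 the adjusted p was 0.0538 for Kcng1, 0.0532 for Kcne4 and 0.122 for Kcnh2.

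Ripor2, a regulator of RhoA and cell polarity (ENSMUSG00000036006, chromosome 13, 24685508 to 24917799, plus strand), had 8.52, 36.5 and 20.8 CPM in ARE-/- and 125, 126 and 132 CPM in WT libraries (-2.54 ± 0.52, edgeR adjusted p = 0.0296). Its call was lost without any of 4 libraries, at most 0.113. Nr1d2, a repressor of the circadian clock, had 25.7, 29.3 and 26.1 CPM, against 48.7, 54.4 and 48.1 CPM in WT (-0.90 ± 0.15, adjusted p = 0.0129). It was the single call among 16 clock genes (6.25%, against 0.391% of all genes, median 0.04). Among 377 zinc finger proteins 2 fell, a share of 0.531%, near the 0.391% of all genes. Zfp9, 1 of them, had 10.7, 16 and 12.7 CPM, against 44.3, 23.5 and 42.3 CPM in WT (-1.48 ± 0.29, edgeR adjusted p = 0.0235). Nr1d2 and Zfp9 lost their calls without WT replicate 1 or 3 (0.0653 to 0.126).

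**Figure D5:**
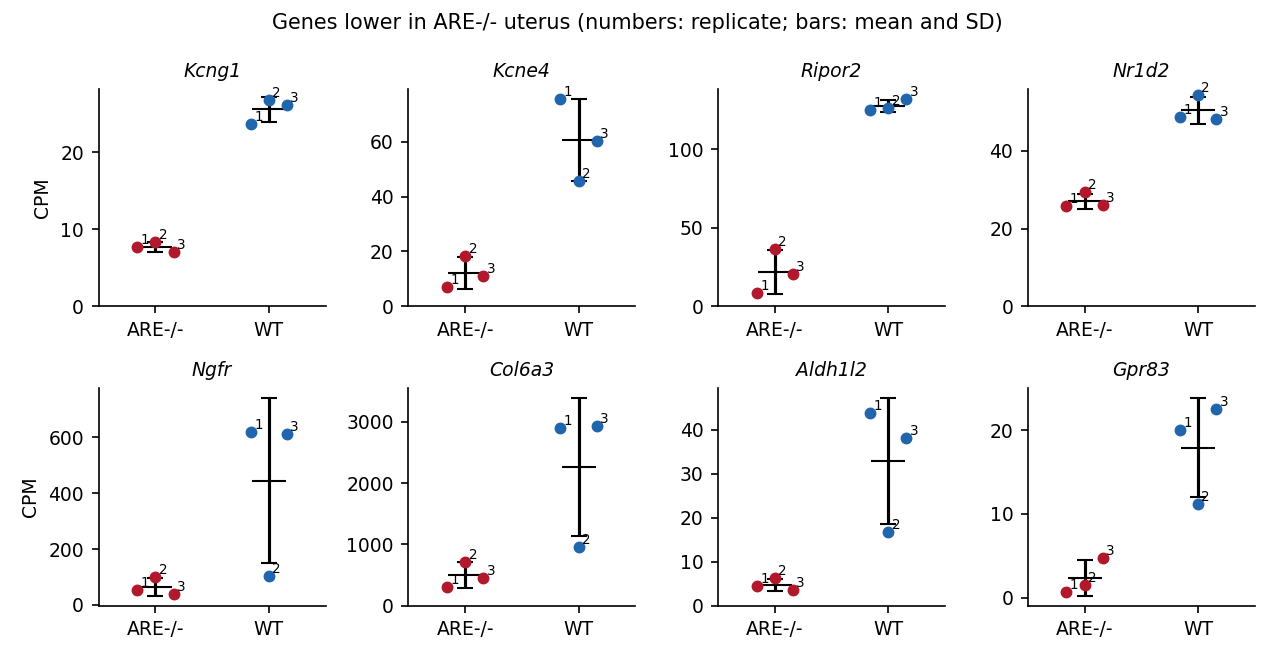
CPM of 8 falling genes per library, ARE-/- left and WT right, with the replicate number beside each point and a bar for mean and SD. The WT libraries of Kcng1, Ripor2 and Nr1d2 lie close together, whereas WT replicate 2 lies below WT replicates 1 and 3 in Kcne4, Ngfr, Col6a3, Aldh1l2 and Gpr83.

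Of 23 BMP and TGF beta genes 3 rose (Ltbp2, Tgfb1 and Tgfbi, median 0.46), a share of 13%, against 3.36% of all genes. Tgfbi, a matrix protein induced by TGF beta, had 415, 247 and 194 CPM in ARE-/- and 86.1, 78.1 and 87.9 CPM in WT uterus (1.76 ± 0.27, edgeR adjusted p = 0.00871). Tgfb1 had 66.9, 42.1 and 52.8 CPM, against 25.9, 30.7 and 21.9 CPM (1.04 ± 0.21, adjusted p = 0.025). Igfbp3, a binder of insulin-like growth factors, was the single call among 29 growth factor genes, a share of 3.45%, near that of all genes. It had 352, 494 and 301 CPM, against 62.6, 145 and 64.8 CPM in WT (2.07 ± 0.37, edgeR adjusted p = 0.0159). Of 34 Wnt genes 2 rose (5.88%, against 3.36% of all genes). Wnt2, a ligand, had 18.4, 1.31 and 1.97 CPM, against 0.214, 0.426 and 0.143 CPM in WT (4.76 ± 1.03, adjusted p = 0.0353), and without ARE-/- replicate 1 it gave 2.62 (0.0271). Sfrp1, a secreted Wnt inhibitor, had 57.8, 29.1 and 32.1 CPM, against 10.6, 19.3 and 8.62 CPM (1.62 ± 0.38, adjusted p = 0.0471). Without WT replicate 1 or 3 all of these except Ltbp2 lost their calls, and Sfrp1 did so without ARE-/- replicate 1 too (1.25, 0.0971). In all, the Wnt2 and Sfrp1 calls were each lost without any of 6 libraries, and that of Tgfb1 without any of 5.

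Among 29 matrix enzymes and inhibitors 4 rose (13.8%, and 0 without WT replicate 1 or WT replicate 3), and Adam8, a metalloprotease of leukocytes, had 37.6, 31.4 and 44.8 CPM in ARE-/-, against 18.6, 15.1 and 18.8 CPM in WT (1.12 ± 0.19, edgeR adjusted p = 0.0134). Tbxas1, thromboxane synthase, was the single rise among 18 prostaglandin genes (5.56%, against 3.36% of all genes). It had 22.7, 20.7 and 36.9 CPM, against 7.61, 7.93 and 5.36 CPM in WT (1.94 ± 0.29, edgeR adjusted p = 0.00739). Slpi, a protease inhibitor of mucosal secretions, had 26.7, 8.47 and 15.9 CPM, against 3.32, 3.80 and 2.38 CPM (2.43 ± 0.41, adjusted p = 0.013). Defb1, a beta-defensin of epithelium, had 3.99, 2.71 and 3.53 CPM, against 0.268, 0.171 and 0.714 CPM (3.14 ± 0.59, adjusted p = 0.0198). They were the 2 rises among 17 gland and mucosal defence genes (11.8%). Atf3 was the single rise among 12 immediate early genes (8.33%, against 3.36% of all genes), at 1.60 ± 0.35 (adjusted p = 0.036). Psap, prosaposin of lysosomes, gave 1.03 ± 0.24 (adjusted p = 0.0441). Each of these 6 calls was lost without WT replicate 1, WT replicate 3 or both in turn, at edgeR adjusted p up to 0.216. Atf3 lost its call without any of 6 libraries and Psap without any of 7, ARE+/- libraries among them.

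Of 300 measured solute carriers 13 rose and 1 fell (median 0.03), and the rises, at 4.33%, were near the 3.36% of all genes. Without WT replicate 1 or WT replicate 3 the rises numbered 2. Slc11a1, the metal transporter of phagosomes, had 42.5, 35.1 and 61.8 CPM in ARE-/- libraries, against 8.71, 14.9 and 8.26 CPM in WT (2.13 ± 0.30, edgeR adjusted p = 0.0056). Slc36a2, an amino acid transporter known from fat, had 91.1, 24.9 and 15.4 CPM, against 1.58, 1.04 and 0.928 CPM in WT (5.21 ± 0.70, adjusted p = 0.0047). Both were called in every removal. Slc28a2, a nucleoside transporter, and Slc15a3, a lysosomal peptide transporter, gave 1.93 ± 0.28 (adjusted p = 0.007) and 2.03 ± 0.30 (0.00739), lost without WT replicate 1 or 3.

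With all 9 libraries no gene was called in the lists of uterine identity (15 genes measured), epithelium (18), stroma (17), blood vessel endothelium (16), progesterone and receptivity (22), estrogen response (20), cell cycle (20), unfolded protein response (13), heat shock (10), glycolysis and hypoxia (18), cytosolic ribosomal proteins (73), mitochondrially encoded proteins (13), nuclear respiratory chain subunits (62), keratins (29) and protocadherins (67). Medians lay between -0.61 for progesterone and receptivity and 0.43 for epithelium. Some of these lists gave calls with 1 library left out. Without WT replicate 2, 3 keratins, 3 estrogen response genes, 2 unfolded protein response genes, 2 heat shock genes and 1 uterine identity gene fell. Without ARE-/- replicate 2, 4 stroma genes, 2 uterine identity genes, 2 progesterone and receptivity genes, 2 protocadherins, 1 keratin, 1 estrogen response gene and 1 heat shock gene fell. The same removal gave 1 rise each in epithelium, glycolysis and hypoxia, and progesterone and receptivity. Further single calls were an estrogen response rise without ARE-/- replicate 1 or ARE+/- replicate 3, a progesterone and receptivity rise without ARE-/- replicate 3 and a protocadherin fall without ARE-/- replicate 1. In stroma 5 of 17 genes and in protocadherins 15 of 67 had all ARE-/- libraries below WT. A gene that was not called is not thereby shown to be equal, since at an unadjusted p under 0.05 the same test gave 4819 genes, 3041 higher and 1778 lower.

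The ARE-/- effect differed between uterus and ovary for few genes, by a test of the difference over 18 libraries (45 of 26682 genes, 0.169%, edgeR interaction). Here values are scaled over all 18 libraries. Uterus and ovary libraries were treated as independent, and whether they came from the same mice was not tested. Ltbp2 had 35.5, 23 and 45.3 CPM in ARE-/- uterus, against 5.56, 4.46 and 4.33 CPM in WT uterus, while in the ovary it had 27.3, 31.9 and 17.3 CPM in ARE-/- and 29.1, 31.9 and 33 CPM in WT. The uterus effect exceeded the ovary effect by 3.15 ± 0.36 on the log2 scale (adjusted p = 0.00476). C2 had 158, 124 and 239 CPM in ARE-/- and 15.1, 26.8 and 15.2 CPM in WT uterus, but 114, 154 and 120 CPM in ARE-/- and 76.3, 120 and 67.1 CPM in WT ovary (difference 2.63 ± 0.46, adjusted p = 0.0382). For Ltbp2 the ARE-/- uterus range overlapped both ovary groups.

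Kcng1 fell in ARE-/- uterus and gave 1.05 ± 0.31 in ARE-/- ovary (not called, adjusted p = 0.0738), a difference of -2.79 ± 0.43 (edgeR adjusted p = 0.0214). Ripor2 gave 0.66 ± 0.42 in the ovary, and the difference was -3.21 ± 0.60 (adjusted p = 0.0499). Gata2, a transcription factor of uterine and blood cells, had 86.0, 121 and 94.1 CPM in ARE-/- uterus, against 141, 249 and 132 CPM in WT uterus (-0.78, not called). In the ovary it had 56.0, 50.8 and 50.4 CPM in ARE-/- and 24.4, 30.4 and 30.7 CPM in WT, a rise of 0.88 ± 0.21 (adjusted p = 0.0252), and the effects differed by -1.67 ± 0.29 (adjusted p = 0.0364). Ces1f gave 1.53 ± 0.71 in the ovary and a difference of 6.40 ± 1.17 (adjusted p = 0.0483), which was 4.48 without uterus ARE-/- replicate 1 (adjusted p = 0.0204). Without that library the difference held in 236 genes, against 45 with it, and these 6 genes stayed under the threshold.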

How the data were processed

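Total RNA was sequenced with paired ends on an Illumina instrument, per the labels' protocols. The deposited table holds whole-number counts per gene, made by the authors with featureCounts 2.0.4 on GENCODE M32, per the file headers. Reads mapping to several places or genes were counted for each, mates were counted singly (68.1% to 76.4% of counts from 1 to 20 were even) and no strand option was set. Reads of near-identical copies and of overlapping or antisense genes are thus mixed, and counting intervals are too narrow. Alignment used STAR on mm10, per the submitters' processing notes, which the annotation release postdates. Tables of the authors' own test were not used here.

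Counts of the 9 uterus libraries (33185496 to 49720354 per library) were fitted in edgeR 4.0.16 (R 4.3.3) with filterByExpr, TMM scaling, 1 mean per genotype and the robust quasi-likelihood test. Adjustment was by Benjamini-Hochberg across the 24277 tested genes, with a threshold of 0.05, and standard errors are the log2 fold change over the square root of F. The common biological coefficient of variation was 0.411. The tissue difference was an interaction over 18 libraries. CPM values use TMM-scaled totals, and those of ovary-enriched genes and of the adipocyte and red cell sums use total counts. Replicates were treated as separate animals, and p-values measure the spread between these libraries. Symbols were found for 91.3% of gene IDs. The code was tested on simulated counts.

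The members, the 50 gene lists and 16 families were chosen with earlier results of these data known, so none is independent evidence. Genes were named by a rule: the 15 largest rises and falls, the 10 largest rises from at least 5 CPM in WT, the 8 most abundant, the 10 steadiest, up to 4 called or 2 uncalled members per list, and the 10 most abundant ovary-enriched transcripts in ARE-/- replicate 1. Actg2, Des, Cnn1, Krt18, Adipoq, Pparg, Lep, Alas2, Myl9, Synpo2, Tpm1, Tpm2, Tubb6, Flna and Cidea fall outside it or were added after their values were seen. Alternatives were RLE and upper-quartile scaling, no filter, at least 1 CPM in 3 libraries, the 6 libraries alone, a replicate block, DESeq2 1.42.0, limma 3.58.1 voom with quality weights, removal of carried genes and of each library. Intervals and floors (95%, 3 counts) cover counting error only.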

Additional observations from a re-analysis of the deposited data

Results flagged for a closer look

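The ARE-/- effect, taken as log2 fold change against WT, differed between uterus and ovary in 6 named genes, by an interaction test over all genes in edgeR. Uterus minus ovary was 3.15 for Ltbp2 (adjusted p = 0.00476), 2.63 for C2 (0.0382) and 6.40 for Ces1f (0.0483). It was -3.21 for Ripor2 (adjusted p = 0.0499), -2.79 for Kcng1 (0.0214) and -1.67 for Gata2 (0.0364). With RLE scaling the adjusted p stayed between 0.00504 and 0.0497. With 3 libraries a group, no library was tested as an outlier, and uterus and ovary libraries were treated as independent.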

How the results depend on the processing

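Against 911 called genes (816 higher, 95 lower), the 6 libraries alone gave 374 (365 and 9), DESeq2 2287 (1779 and 508) and limma voom with quality weights 3081 (1980 and 1101). Leaving out 1 library gave 192 to 1322 calls, 190 to 1044 rises and 1 to 375 falls. Of 128 called genes named by the rule, 68 held in the 6 libraries and 42 to 114 with 1 library left out. Lists and families with a call numbered 41, then 23 in the 6 libraries and 15 to 54 with 1 left out. Adipocyte calls were 17, then 10 in the 6 libraries, 10 with no filter and 0 to 17 with 1 left out. Ovary-enriched transcripts summed to 580 CPM in ARE-/- replicate 1 and to 1151 CPM under the wider definition. Tissue differences numbered 45, and 236 without uterus ARE-/- replicate 1.

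Whether replicate numbers pair the libraries cannot be decided from 3 libraries a group. Deviations of same-numbered ARE-/- and WT libraries correlated at 0.184, 0.126 and 0.0333. The same-numbered WT library was the best match for ARE-/- replicates 1 and 2, whereas ARE-/- replicate 3 correlated best with WT replicate 2 (0.0405). A replicate block gave 765 calls, 706 higher and 59 lower. Among 100 genes followed singly, no called gene changed sign in 18 alternatives. Of 1775 gene results, 1438 kept their call, 310 lost it, 5 gained one and 22 changed sign, all in uncalled genes. The signs that changed were those of Actg2 (-1.60 in voom, -0.27 with the block, -1.93 to 1.30 with 1 library left out), Des (-0.85, -0.02, -1.09 to 0.83), Cnn1 (-1.33, -0.39, -1.56 to 0.65), Hsd3b1 (-2.84 in voom, -2.93 to 6.51), Cyp11a1 (-1.04 in voom, -1.41 to 4.71), Acta2 (-1.08 to 0.07), Myh11 (-0.82 to 0.25) and Krt14 (-1.20 to 0.42). The cause was not tested. With 3 libraries a group and a coefficient of variation of 0.411, small changes were not detectable at this depth of replication.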
